A study of Mus musculus with 2 samples.

Results

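The miR-130/miR-301 family of the mouse adrenal gland was examined through its 4 genes, Mir130a, Mir130b, Mir301 and Mir301b. They were chosen by gene symbol from 2202 annotated miRNA genes. The small RNA libraries came from the adrenal glands of 2 female mice of the strain B6CASTF1/J, aged 25 days, with 1 library per gland. This strain is a first-generation cross between a laboratory strain and a wild-derived one. The labels give 1 group with no treatment and no contrast, so the only comparison is between the 2 libraries. The labels number the animals separately but carry the same donor identifier for both, and animal, dissection and library preparation cannot be told apart. RNA below 30 nucleotides was sequenced, and reads were counted per miRNA gene.

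A miRNA is cut from a hairpin precursor and guides Argonaute proteins to messenger RNAs that pair with its seed, bases 2 to 8 from the 5′ end. miRNAs with the same seed can recognise many of the same targets. The miR-130/miR-301 family is best known from blood vessels and fat. Its studied targets include Pparg, the master regulator of fat cell formation and a brake on vascular remodelling. The adrenal gland is densely supplied with capillaries that run through a steroid-making cortex into a catecholamine-making medulla. Bulk counts of the gland do not show which of its cells made a miRNA, and fewer cells of a type cannot be told apart from less RNA per cell.

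The sequences show what makes these genes a family and how the reads could tell them apart. Those below are from RefSeq (GRCm38.p6), where all 4 genes were found, 3 of them with the 3p arm that gives the family its seed. miR-301b-3p is named only. Capitals mark bases 2 to 8.
miR-130a-3p: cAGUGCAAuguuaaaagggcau
miR-130b-3p: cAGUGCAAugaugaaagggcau
miR-301a-3p: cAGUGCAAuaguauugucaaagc
The seed AGUGCAA was the same in all of these. Counted from 1 at the 5′ end, miR-130b-3p differed from miR-130a-3p at 2 of 22 positions, by U11A and A13G. miR-301a-3p matched miR-130a-3p over the first 9 bases and differed at 10 of the 22 compared positions. The other arm of each hairpin divides the family in another way, with capitals again on bases 2 to 8.
miR-130a-5p: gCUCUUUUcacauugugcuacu
miR-130b-5p: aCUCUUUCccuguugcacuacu
miR-301a-5p: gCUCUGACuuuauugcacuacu
miR-301b-5p: gCUCUGACuagguugcacuacu
The 5p arms of Mir301 and Mir301b shared the seed CUCUGAC and matched at 19 of 22 positions. Those of Mir130a and Mir130b had the seeds CUCUUUU and CUCUUUC. The deposited counts are per gene and add both arms, so they do not show how many reads carried the 3p seed.

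Among 1738 mature sequences of 1058 genes in the RefSeq table, 7 had AGUGCAA at bases 2 to 8. Besides 3 members these were the products of 4 further genes, shown here because they carry the same seed.
miR-130c: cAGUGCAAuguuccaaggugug
miR-721: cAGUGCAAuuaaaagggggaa
miR-6341: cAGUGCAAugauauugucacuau
miR-6389: cAGUGCAAuguuaaacuuugc
All 4 genes, Mir130c, Mir721, Mir6341 and Mir6389, had 0 reads in both libraries. A count of 0 allows up to 3 reads, or 1.34 CPM in library 1 and 0.767 CPM in library 2. CPM is the normalised read count, the reads of a gene scaled to a fixed total of reads on the strand of miRNA genes.

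The members lie at 3 loci, given here in mm10. Mir130a (ENSMUSG00000065484.1) spans chr2:84741115-84741178 on the minus strand and overlaps no other annotated gene. Its nearest annotated gene, Gm19426, lies 990 bases away on the same strand. Mir301 (ENSMUSG00000065589.1) spans chr11:87113004-87113089 on the plus strand, in an intron of Ska2, which encodes a protein of the spindle and kinetochore complex. Mir130b (ENSMUSG00000065572.1) spans chr16:17124061-17124142 and Mir301b (ENSMUSG00000076288.1) spans chr16:17124400-17124496, both on the minus strand. They are 257 bases apart in an intron of the protein-coding gene 2610318N02Rik, on its strand, and Mir301b comes first. The hairpins of this pair are shown because the genes share a locus at unequal levels, with capitals on the AGUGCAA found in each.
Mir130b: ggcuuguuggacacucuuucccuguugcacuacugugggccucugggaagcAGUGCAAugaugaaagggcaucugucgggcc
Mir301b: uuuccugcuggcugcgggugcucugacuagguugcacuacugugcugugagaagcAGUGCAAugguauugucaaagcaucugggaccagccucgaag
AGUGCAA occurred once in each hairpin, from base 52 of 82 in Mir130b and from base 56 of 97 in Mir301b.

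The longest stretch that a member shared with any other of the 2202 miRNA gene models, on either strand, was 17 bases for Mir130a, with Mir6389. It was 16 bases for Mir130b, with Mir6368, and 16 bases between Mir301 and Mir301b. These stretches are shorter than the mature arms shown, of 22 or 23 bases, so an exact full-length read had 1 place among miRNA genes. The rest of the genome was not searched for copies. Gene counts leave out any read with several places in the genome, which was 28.4% of library 1 and 27.5% of library 2.

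Library 1 held 7938596 reads, of which 2244073 (28.3%) lay on the strand of a miRNA gene, and library 2 held 11132685 reads, of which 3912280 (35.1%) did. A read was thus worth 0.446 CPM in library 1 and 0.256 CPM in library 2. The endocrine miRNA gene Mir375 was high in both, with 37574 and 36561 CPM. Markers of blood and neighbouring tissue were uneven. The 3 erythroid markers summed to 680 CPM in library 1 and 25715 CPM in library 2, and the liver marker Mir122 had 5185 and 491 CPM. Of the 5 striated muscle markers, 4 were at 0 in both libraries. Reads with several places in the genome are in no count, so these zeros do not show that muscle was absent. Intervals below are 95% and cover counting error only, computed as if reads were independent. Reads lack molecular identifiers and are not independent, so the intervals are likely too narrow.

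Mir130a, an miRNA gene studied in endothelial cells and angiogenesis, was by far the most abundant member. It had 9263 reads in library 1 and 20024 in library 2, or 4128 CPM (95% exact Poisson interval 4044 to 4213) and 5118 CPM (5048 to 5190). Its mean was 4623 ± 700 CPM (SD, n = 2), which ranked 37 of all 2202 genes. Both libraries placed it within the same narrow band of ranks, 37 in library 1 and 35 in library 2.

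Mir130b, the pair partner with the 3p arm closest to that of Mir130a, had 336 and 911 reads in libraries 1 and 2. This gave 150 CPM (134 to 167) and 233 CPM (218 to 248), with a mean of 191 ± 58.8 CPM (SD, n = 2). Mir301, which gives miR-301a, had 225 and 1034 reads, or 100 CPM (87.6 to 114) and 264 CPM (248 to 281). Its mean of 182 ± 116 CPM (SD, n = 2) had the widest spread of the 4 relative to its level. Mir130b and Mir301 did not differ beyond that spread, and their order turned between libraries. Mir130b was 1.49 times Mir301 (1.26 to 1.78) in library 1 and 0.881 times (0.805 to 0.964) in library 2.

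Mir301b, the other gene of the pair, was near the limit of detection. It had 8 reads in library 1 and 22 in library 2, or 3.56 CPM (1.54 to 7.02) and 5.62 CPM (3.52 to 8.51), and a mean of 4.59 ± 1.46 CPM (SD, n = 2). It was the only member without 10 reads in each library, a mark that 337 of the 2202 genes reached. The order of levels was therefore Mir130a, then Mir130b and Mir301 at similar levels, then Mir301b. Mir130a stood 27.6 times (24.7 to 30.8) above Mir130b in library 1 and 22.0 times (20.6 to 23.5) in library 2. Division by the length of each annotated hairpin, per 100 bases, left Mir130a first with 7223 and Mir301b last with 4.74, and Mir130b and Mir301 at 233 and 212.

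**Figure D1:**
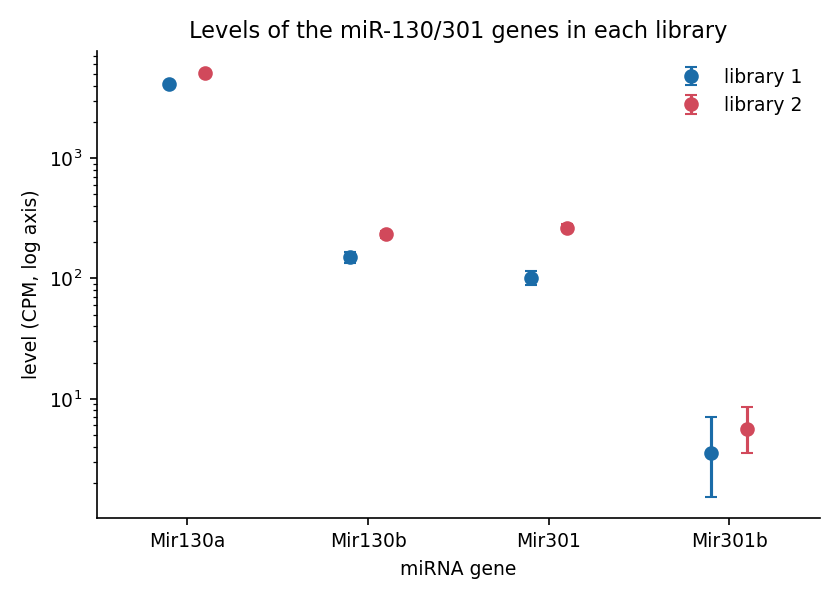
Level of each miR-130/miR-301 gene (CPM, log axis) in library 1 and library 2, with 95% exact Poisson intervals for counting error. Mir130a lies at 4128 and 5118 CPM, Mir130b and Mir301 between 100 and 264 CPM, and Mir301b at 3.56 and 5.62 CPM.

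Together the 4 genes held 0.438% of the miRNA reads in library 1 (95% Wilson interval 0.430 to 0.447%) and 0.562% in library 2 (0.555 to 0.570%). The mean share was 0.50 ± 0.0877% (SD, n = 2), and the intervals of the libraries did not overlap. Nearly all of it was Mir130a, with 94.2% of the family's reads in library 1 (93.7 to 94.7%) and 91.1% in library 2 (90.7 to 91.4%). The other 3 genes made up 5.79% (5.34 to 6.27%) and 8.94% (8.57 to 9.33%). Mir301 differed most within this remainder, with 2.29% (2.01 to 2.60%) of the family's reads in library 1 and 4.70% (4.43 to 4.99%) in library 2. Mir130b held 3.42% (3.08 to 3.80%) and 4.14% (3.89 to 4.41%). Its intervals were also apart, by less than those of Mir301.

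**Figure D2:**
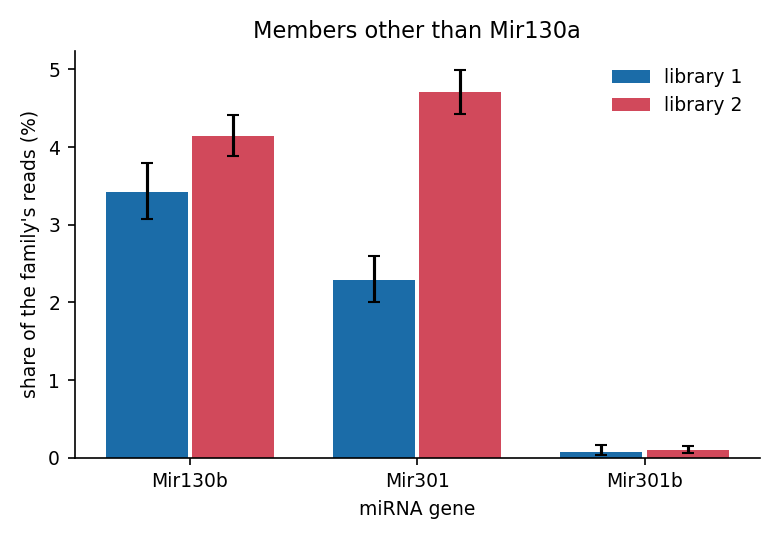
Share of the family's reads (%) held by Mir130b, Mir301 and Mir301b in library 1 and library 2, with 95% Wilson intervals for counting error. Mir301 is at 2.29% and 4.70%, below Mir130b in library 1 and above it in library 2, while Mir301b is at 0.0814% and 0.10%.

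Between the libraries, all 4 members were higher in library 2, by unequal amounts. Each gene with 10 or more reads in all went through an exact binomial test, two-sided, on scaled library sizes, adjusted by Benjamini and Hochberg over 411 genes. It compares these 2 libraries and not conditions. Mir301 was 2.79-fold higher in library 2 (2.42 to 3.25, adjusted p = 7.42e-53 in the exact binomial test). Mir130b was 1.65-fold higher (1.46 to 1.88, exact binomial adjusted p = 2.25e-15) and Mir130a 1.32-fold higher (1.28 to 1.35, exact binomial adjusted p = 2.88e-108). For Mir301b the ratio was 1.61 with an interval of 0.718 to 4.35 (exact binomial adjusted p = 0.358), so a difference was not detectable at this depth. The intervals of Mir130a, Mir130b and Mir301 did not overlap one another. Each gene thus stood at its own ratio relative to counting error, if reads are taken as independent.

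These ratios are to be read against the table as a whole. At an adjusted p under 0.05, 3 of the 4 members were called, and so were 58.4% of all genes tested. All 3 were called higher in library 2, as were 29.4% of genes tested. Whether called or not, 47.4% of genes tested were higher in library 2, and all 4 members were. Mir130b and Mir301 also passed a limit of 1.5-fold in that direction, which 15.1% of genes tested did. The median log2 ratio was 0.71 over the members and -0.07 over all 411 genes. None of the 4 was called by edgeR's negative binomial exact test, whose common dispersion was estimated from the same 2 libraries that it compares. A gene could pass it only with a ratio well beyond the usual one between these libraries, so a miss does not show that a member was level. That test gave an unadjusted p of 0.0736 for Mir301 and of 0.376 to 0.623 for the other 3, with adjusted p of 1 for each. It called 1.22% of all genes at an adjusted p under 0.05 and 2.92% at an unadjusted p under 0.05. The differences of Mir130a, Mir130b and Mir301 exceeded counting error as computed for independent reads.

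Mir301 stood furthest out of the family. Its log2 ratio of 1.48 was larger, in either direction, than that of 379 of 411 genes (92.2%). Of 68 other genes within 2-fold of its mean level, 66 had a smaller ratio. Mir130b, at nearly the same level and with a log2 ratio of 0.72, exceeded 53 of 68 such genes. Mir130a had a log2 ratio of 0.40, smaller than the median of 0.50 (either direction) over all genes tested. At its level, 10 of 24 genes had a smaller ratio.

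**Figure D3:**
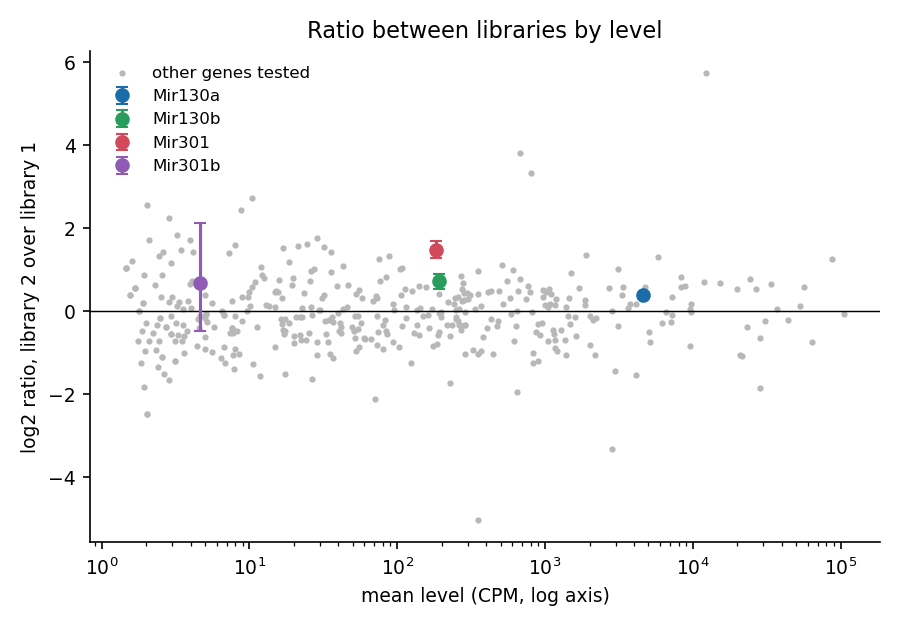
Log2 ratio of library 2 over library 1 against mean level (CPM, log axis) for the 411 genes tested, with the 4 members in colour and their 95% intervals from counting error. Mir301 at 1.48 lies near the upper edge of the genes of its level, Mir130b at 0.72 and Mir130a at 0.40 lie among the others, and the interval of Mir301b spans 0.

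The pair Mir130b and Mir301b had unequal levels, and the ratio of Mir301b between libraries was imprecise. Mir130b was 42.0 times Mir301b (21.1 to 98.1) in library 1 and 41.4 times (27.2 to 66.4) in library 2. Of the reads at this locus, Mir130b held 97.7% (95.5 to 98.8%) and 97.6% (96.5 to 98.4%). On the log2 CPM scale the levels differed by 5.38. A set of 400 pairs of tested miRNA genes, each within 10 kb on 1 strand, had a median difference of 2.29, and 69 of the pairs differed by more. Of these pairs, 281 lie on chromosome 12, where a gene of a dense cluster enters many pairs. Among the 119 pairs elsewhere, chosen after seeing the data, the median was 2.59 and 22 differed by more. Pairs that hold a numbered copy, such as Mir23b and Mir24-1 at 9.01, may differ too much, since reads that fit several genes are in no count. The numbers of pairs with a larger difference in level may thus be too high. The log2 ratios of Mir130b and Mir301b between libraries, 0.72 and 0.69, differed by 0.03, against a median of 0.51 over the pairs. In this measure 12 of the 400 pairs differed by less, 1 of them outside chromosome 12. The 8 and 22 reads of Mir301b leave its own log2 ratio anywhere from -0.48 to 2.12, so the closeness of the ratios is not established. Mir301, the copy of similar sequence in Ska2, was 28.1 times Mir301b (14.0 to 65.9) in library 1 and 47.0 times (30.9 to 75.3) in library 2.

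**Figure D4:**
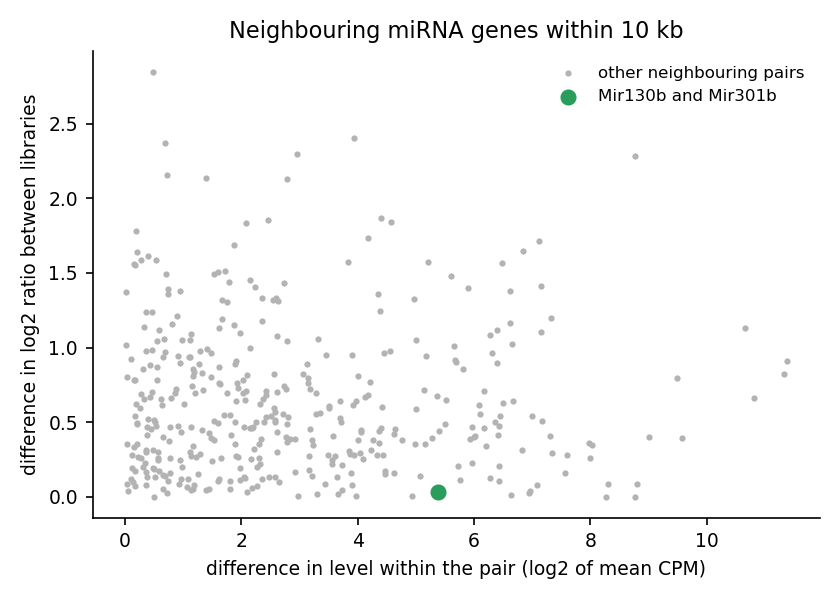
Difference in log2 ratio between libraries against difference in level (log2 of mean CPM) for 400 pairs of miRNA genes within 10 kb on 1 strand, 281 of them on chromosome 12. The pair Mir130b and Mir301b, in green, differs by 5.38 in level and by 0.03 in ratio.

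Genes with a related sequence or a shared field of study were set beside the family. Calls below are to be read against all genes tested, of which 58.4% were called and 29.4% were called higher in library 2. The 3 miR-19 genes have the last 6 letters of the family's seed, GUGCAA, at bases 2 to 7.
miR-19a-3p: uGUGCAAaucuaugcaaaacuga
miR-19b-3p: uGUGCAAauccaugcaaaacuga
They belong to the growth-promoting miR-17-92 cluster and its paralog, and had 3 reads in library 1 and 19 in library 2 in all. Mir19b-1 and Mir19b-2 give the same mature sequence, and reads that fit both are in no count, so their low level is uncertain. Mir19a, the only one with enough reads for the test, had 2 and 13 reads (exact binomial adjusted p = 0.0998). The miR-148/miR-152 genes, studied as repressors of cholesterol uptake and DNA methylation genes, were closer in level to Mir130b. Mir148a had 619 and 555 CPM, Mir152 had 302 and 225 CPM and Mir148b had 157 and 104 CPM in libraries 1 and 2. Of these 3, Mir148b and Mir152 were called higher in library 1 and none higher in library 2. Their median log2 ratio was -0.33. The family's own median was 0.71, and the difference between the families was not tested.

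Mir27a and Mir27b, studied as repressors of Pparg like the family, were both called higher in library 1. Mir27b had 6545 and 3684 CPM (log2 ratio -0.74) and Mir27a 1328 and 921 CPM (log2 ratio -0.44). Mir27b lay above Mir130a in library 1 and below it in library 2. Of the 3 genes studied with the family in vascular remodelling, Mir322 was called higher in library 2 (18583 and 30119 CPM), Mir503 was called higher in library 1 (331 and 247 CPM) and Mir204 had 30.3 and 29.1 CPM. Of 8 angiogenesis and vessel genes, 7 were found by symbol. The remaining gene, Mir92a-1, is annotated as Mir92-1, which was tested but is left out here. Of the 7, 4 were called higher in library 2 (Mir126a, Mir210, Mir296 and Mir221) and 3 higher in library 1 (Mir222, Mir23b and Mir24-1). Reads that fit several genes are in no count, so the values of numbered copies such as Mir24-1 are uncertain. The median log2 ratio of the 7 was 0.32. Without Mir92-1, neither the split nor the median describes the whole list. They do not show a lean of the vessel genes toward either library.

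**Figure D5:**
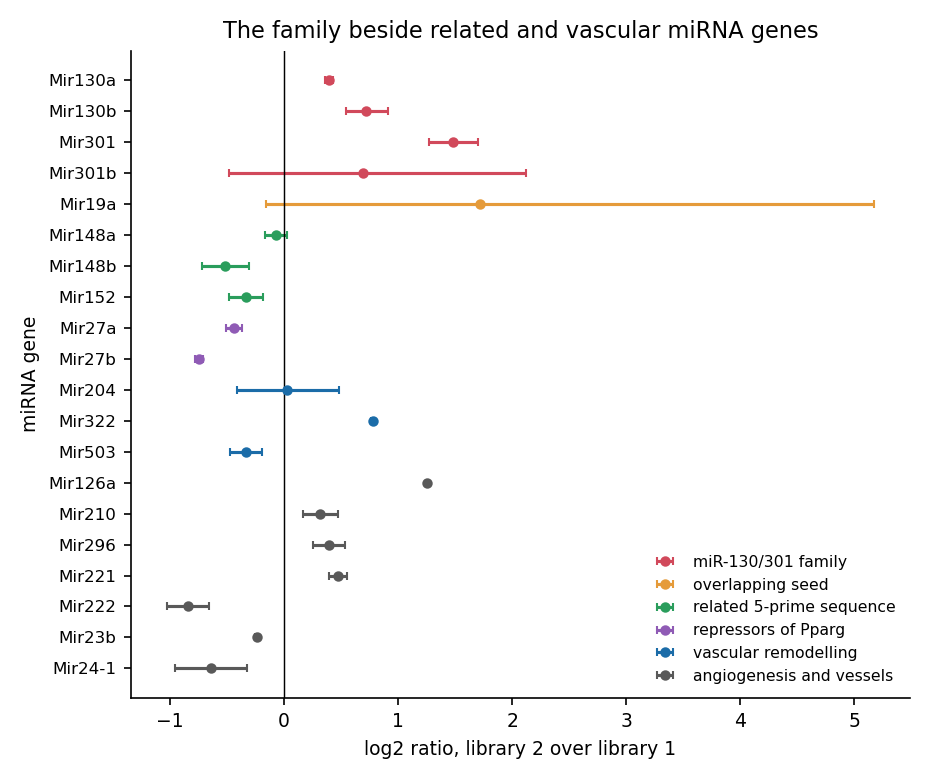
Log2 ratio of library 2 over library 1, with 95% intervals from counting error. Shown are the 4 members and, from 5 lists of related or vascular miRNA genes, those found by symbol and tested. The members lie at 0.40, 0.72, 1.48 and 0.69, right of 0, while the miR-148/miR-152 and Mir27 genes lie left of 0.

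Cell type markers differed between the libraries as well. The endothelial marker Mir126a, the main miRNA of blood vessel lining, had 53763 CPM in library 1 and 121007 CPM in library 2. The 5 smooth muscle and fibroblast markers summed to 28927 and 41797 CPM, of which 1 gene was called higher in library 2 and 1 in library 1. The 5 leukocyte markers summed to 2126 and 1612 CPM, with 1 called higher in library 2 and 3 in library 1. The 6 markers of kidney epithelium summed to 137 and 95.9 CPM, with 2 called higher in library 1 and none in library 2. The 3 neuroendocrine markers summed to 41756 and 42440 CPM, and all 3 were called higher in library 2. For Mir375 that direction (log2 ratio 0.05) came from the scaling alone, since its CPM was lower in library 2. Of the 3 erythroid markers, Mir451a and Mir144 were called higher in library 2 and Mir486 in library 1. Reads that fit several genes are in no count, so marker sums that include numbered copies, such as Mir199a-1 and Mir199a-2, may be too low. The part of any of these cell types in the ratios of the family was not tested.

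By distance over the log2 of CPM plus 1 in the 2 libraries, the genes nearest to Mir130a were Mir7b (0.14) and Mir541 (0.28). Mir7b, of the neuroendocrine miR-7 family, had 3921 and 5543 CPM. Nearest to Mir130b were Mir500 (0.21) and Mir350 (0.41). Mir301 had no gene as close, with Mir130b (0.60) and Mir350 (0.64) first. Mir301b lay nearest to Mir365-1 (0.26) and Mir3065 (0.48). Likeness over 2 libraries is a description of level and ratio only.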

How the data were processed

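The authors deposited 1 table of raw read counts per miRNA gene for each library, not normalized and not pooled. Reads were mapped to mm10 with the GENCODE M21 annotation, per the text deposited with each table. No aligner, counter or trimming tool is given in the sources used here. A table holds 3 count columns without a header. Their meaning (unstranded, strand of the gene, other strand) was inferred from layout and totals, and the strand of the gene gave the main values.

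Library sizes and tests leave out the rows without a gene. In libraries 1 and 2 these rows held 33.8% and 27.8% of the reads as unmapped, 28.4% and 27.5% as mapped to several places, and 9.57% and 9.53% as outside miRNA genes. In the unstranded column, ambiguous reads were 3.84% and 7.49%.

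With 1 group there is no coefficient for a quasi-likelihood test. Genes with 10 or more reads in all were tested by an exact binomial test with edgeR TMM library sizes. Log2 ratios have 0.5 read added, and their intervals are exact and conditional on the sum. The test was checked on simulated counts that varied by counting error alone, so the check does not cover further variation between libraries. Named genes are the members, genes with their seed, the 2 nearest detected genes of each member and genes of the lists. Gm23634 was added after seeing the data. The members and lists were chosen with earlier results of these data known. Versions were Python 3.11.15, scipy 1.17.1, statsmodels 0.14.6, R 4.3.3, edgeR 4.0.16 and DESeq2 1.42.0 (size factors only).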

Additional observations from a re-analysis of the deposited data

Results flagged for a closer look

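Some reads at Mir130a lay on its opposite strand, outside the counts used above, where no gene is annotated. There were 4 such reads in library 1 and 8 in library 2, above the 3 reads that a count of 0 allows. Of the reads on either strand of Mir130a, these made up 0.0432% (95% Wilson interval 0.0168 to 0.111%) and 0.0399% (0.0202 to 0.0788%), and the intervals overlapped. The other 3 members had 0 such reads in both libraries. With fewer reads, their upper limits ran from 0.370% (Mir301, library 2) to 32.4% (Mir301b, library 1). These limits lie above the shares at Mir130a, so a difference between members is not shown.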

How the results depend on the processing

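No paired analysis was possible because the labels give a single group. All 4 members stayed higher in library 2 under each scaling, filter and count column tried, and the calls of the exact binomial test kept their side of the threshold. Mir301b had too few reads for the filter of 100. Leaving out the filter on low counts shifted all log2 ratios by a median of 0.17, and the log2 ratios of the members are relative to that scaling. Over the alternatives, the log2 ratio ran from 0.31 to 0.56 for Mir130a, from 0.64 to 0.89 for Mir130b, from 1.40 to 1.65 for Mir301 and from 0.55 to 0.85 for Mir301b. Of the genes called, 50.4% were higher in library 2, 42.9% with library size alone and 61.7% with no filter, which tested 751 genes. The edgeR negative binomial exact test called 5 genes in place of 240. It ended the calls of Mir130a (log2 ratio 0.40), Mir130b (0.72) and Mir301 (1.48), each with an adjusted p of 1, since its dispersion was estimated from the same 2 libraries (biological coefficient of variation 0.387). With all reads of the library as the denominator, mean levels were 1483 CPM for Mir130a, 62.1 for Mir130b, 60.6 for Mir301 and 1.49 for Mir301b, and the family's share was 0.161%. With unstranded counts, whose total is smaller, Mir130a had 5642 CPM and the share was 0.611%. Per 100 bases of the hairpin, an alternative chosen after seeing the data, Mir130a had 7223 CPM. With either library alone, levels ran from 4128 to 5118 CPM for Mir130a, 150 to 233 for Mir130b, 100 to 264 for Mir301 and 3.56 to 5.62 for Mir301b. The family's share ran from 0.438 to 0.562%. With 8 and 22 reads, depth limits every statement on Mir301b.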
